A study of Mus musculus with 23 samples.

Results

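V-ATPase subunits, Rab GTPases, Vps proteins and sorting nexins, the machinery of endosomes and lysosomes, were followed in sorted microglia of mouse models of amyloid and tau pathology. Members were all probe sets whose annotated symbol starts with Atp6v, or with Rab, Vps or Snx and then a digit. The rule gave 152 of the 22203 probe sets on the array, for 151 genes, with 22 probe sets in the V-ATPase family, 65 in the Rab, 34 in the Vps and 31 in the Snx family. Snx29 had 2 probe sets, 9 of the Rab probe sets belong to regulators or effectors named after a Rab, and Atp6v1fnb is a neighbour of Atp6v1f and not a pump subunit. Symbols with no probe set, such as Atp6v0c, the proton-carrying ring subunit, were not analysed here.

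The V-ATPase acidifies endosomes, phagosomes and lysosomes: its cytosolic V1 sector hydrolyses ATP and drives protons through the membrane-embedded V0 sector. Rab GTPases give each compartment its identity and recruit tethers and motors. Many Vps proteins, though not all, form the complexes that sort cargo and fuse late endosomes with lysosomes. Sorting nexins bind phosphoinositide lipids and shape recycling tubules. Microglia use this route to digest what they engulf, including debris, myelin and protein aggregates.

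The cells of main interest were CD45+ CD11b+ microglia from cortex plus hippocampus that had also been sorted as Clec7a+, the cells the labels call active. They came from APPswlnd mice at 12 months (APP, 4 samples), which carry a mutant human amyloid precursor protein, and from P301S (PS19) mice at 9 months (TAU, 4 samples), which carry a mutant human tau. For these TAU samples, 9 months is the age in the age and source fields and was used, although the titles read 12. Both were compared with CD45+ CD11b+ microglia of C57BL6 mice at 12 months (WT, 4 samples). Ungated microglia at 3 months came from APP (3 samples), TAU (4 samples) and WT mice (4 samples). The Clec7a gate is named for the older transgenic groups alone, so gate, transgene and pathology, and for TAU also age, cannot be told apart in the comparisons with WT. Promoters that drive the transgenes and the sex of the mice are not given in the sources used here. Replicates are described as biological, with nothing on whether each came from its own animal, so p-values measure the spread between these samples. In such bulk samples, a change in the mix of cells and a change in RNA per cell cannot be told apart.

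The 23 arrays had medians of 6.87 to 7.13 log2 units. All 9 microglial markers measured were above background in all 6 groups, although 6 of the 9 were lower in each Clec7a+ group than in WT at 12 months. Their summed level was 19.15 to 19.28 in Clec7a+ APP, 19.18 to 19.38 in Clec7a+ TAU and 19.89 to 20.06 in WT at 12 months. All 5 monocyte markers were at background in every group. The 7 border macrophage markers summed to 11.14 to 11.60 in Clec7a+ APP, 12.44 to 14.59 in Clec7a+ TAU and 11.19 to 11.76 in WT at 12 months, with Cd163, F13a1 and Lyve1 at background throughout. Of these 7, Cbr2 was lower in Clec7a+ APP (-1.23, adjusted p = 0.0427) and Ms4a7 higher in Clec7a+ TAU (3.56, adjusted p = 1.81e-05). The 5 neutrophil markers summed to 7.93 to 8.30 in Clec7a+ APP, 7.86 to 8.22 in Clec7a+ TAU and 8.61 to 11.29 in WT. S100a8 was lower in both Clec7a+ groups, although Camp, Mmp8, Ngp and S100a8 were at background in all 3 groups. The 6 endothelial markers summed to 9.30 to 11.76 in Clec7a+ APP, 9.15 to 9.38 in Clec7a+ TAU and 9.28 to 9.91 in WT, with Cdh5, Cldn5, Pecam1 and Tek at background in all 3, and in Clec7a+ APP Flt1 was higher (2.08, adjusted p = 5.18e-05) and Pecam1 lower. The 6 astrocyte markers summed to 10.10 to 11.66 in Clec7a+ APP, 10.06 to 11.69 in Clec7a+ TAU and 10.97 to 12.23 in WT, with Aqp4, Gja1 and Slc1a3 at background in all 3, and Gfap was higher in Clec7a+ APP (2.43, adjusted p = 1.31e-05). The 5 T and NK cell markers summed to 8.52 to 8.99 in Clec7a+ APP, 9.51 to 10.29 in Clec7a+ TAU and 8.09 to 9.62 in WT, with Cd3d, Cd3e, Gzma and Nkg7 at background in all 3, and Klrb1c was higher in Clec7a+ TAU (1.62, adjusted p = 0.0443). No B cell, neuron or oligodendrocyte lineage marker was called against WT in limma. The part of these markers in the results below was not tested. Background was set, per group, at the 95th percentile of 1464 chemosensory receptor probe sets, 7.72 to 8.11 log2 units. A group mean at or below it is called at background here, and a fold against such a group is given as a bound. By this measure 108 members were above background in at least 1 group, and 44 (8 V-ATPase, 27 Rab, 4 Vps and 5 Snx) were at background in all 6. WT replicates 2 and 4 at 12 months stood apart from their group in an earlier result of these data. They had the lowest median V-ATPase signal of the 23 arrays (8.32 and 8.30, against 8.93 and 8.80 in WT replicates 1 and 3), so results that depend on them are marked.

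Clec7a+ APP microglia had 7 higher and 1 lower V-ATPase probe sets than WT microglia at 12 months, together with 5 higher and 1 lower Rab, 1 higher and 1 lower Vps, and 2 higher Snx probe sets. A probe set was called higher or lower at an adjusted p under 0.05 in limma, with Benjamini-Hochberg adjustment over all 22203 probe sets. Over the whole array 5.60% of probe sets were called higher and 3.48% lower, 9.08% in either direction. Among the 152 members the calls were 15 higher and 3 lower, with 8 of the 18 in the V-ATPase family. More of the members (108 of 152) than of the array (9130 of 22203) were above background in at least 1 group. Shares of the whole array, here and below, are therefore not like for like with those of the members. Of the 22 V-ATPase probe sets, 8 had all Clec7a+ APP samples above all WT samples and 3 had all below, beside 6.72% and 4.83% of the array. The median log2 difference was 0.37 for V-ATPase, 0.06 for Rab, 0.03 for Vps and -0.07 for Snx probe sets, beside -0.06 for all probe sets. Without WT replicates 2 and 4 the V-ATPase median was 0.15 and 6 of the 22 were called, 4 higher and 2 lower.

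In Clec7a+ TAU microglia, against the same WT samples, 7 V-ATPase probe sets were higher and 1 lower, 3 Rab were higher and 1 lower, 1 Vps was higher and 1 lower, and no Snx probe set was called (3 had an unadjusted p under 0.05). The array as a whole had 5.09% of probe sets called higher and 3.67% lower, 8.76% in either direction. Family medians were 0.34 for V-ATPase, 0.01 for Rab, -0.03 for Vps and -0.10 for Snx, beside -0.05 for all probe sets. With WT replicates 2 and 4 left out, the V-ATPase family had 3 higher and 1 lower call, 4 in all, and the median was 0.22. All Clec7a+ TAU samples lay above all WT samples for 7 V-ATPase probe sets and below for 1, beside 6.38% and 5.55% of the array. Both Clec7a+ groups were set against the same WT samples, so the likeness of their counts is not independent.

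**Figure D1:**
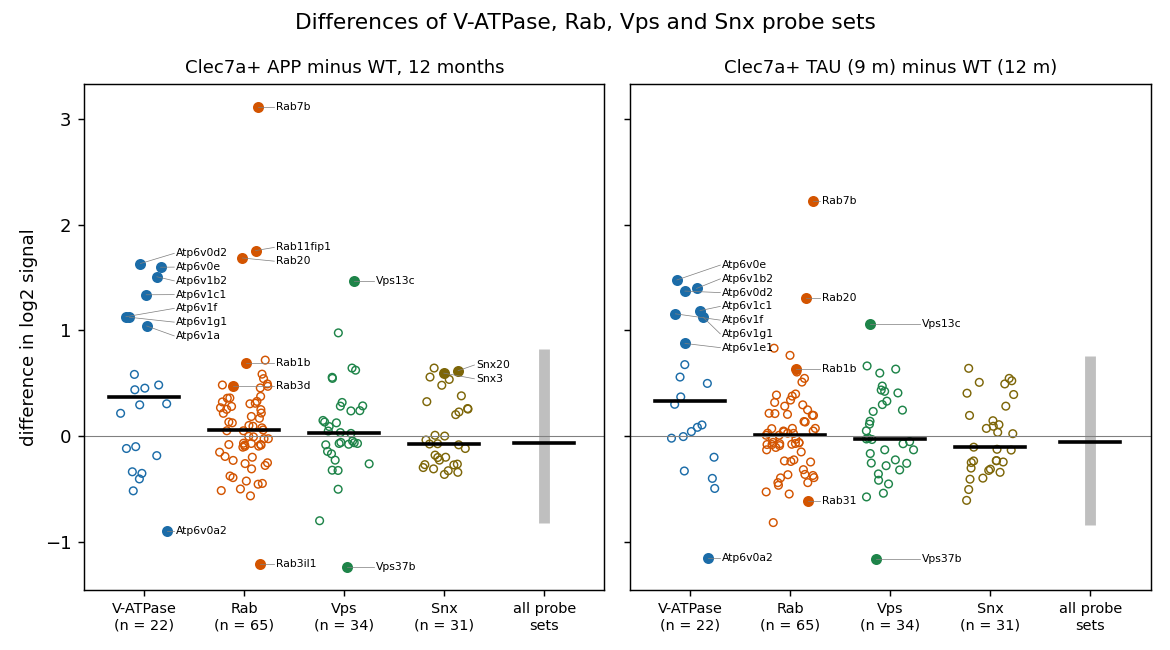
Difference in log2 signal of each member between Clec7a+ APP (left) or Clec7a+ TAU (right) and WT at 12 months. Filled points passed an adjusted p of 0.05 in limma and open points did not, horizontal bars are medians, and the grey band runs over the 5th to 95th percentile of all 22203 probe sets. The V-ATPase medians of 0.37 and 0.34 stand above those of the other families, and Rab7b has the largest difference in both panels.

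Among V1 subunits, the sector that hydrolyses ATP, 5 of 13 were higher in Clec7a+ APP and 5 of 13 in Clec7a+ TAU, and none was lower. Atp6v1c1, subunit C, which clamps the stator stalks and is released when the pump disassembles, had 12.23, 12.31, 12.32 and 12.11 log2 units in Clec7a+ APP, 12.14, 12.32, 12.20 and 11.71 in Clec7a+ TAU, and 11.35, 10.60, 11.25 and 10.42 in WT at 12 months. Every Clec7a+ sample lay above every WT sample. The difference was 1.34 ± 0.21 (SE) in APP, a 2.53-fold rise (adjusted p = 0.0001), and 1.19 ± 0.21 in TAU, a 2.28-fold rise (adjusted p = 0.000556).

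Atp6v1f, subunit F of the central rotor stalk, had 16.51, 16.44, 16.65 and 16.14 log2 units in Clec7a+ APP, 16.59, 16.61, 16.54 and 16.11 in Clec7a+ TAU, and 15.32, 15.01, 15.76 and 15.13 in WT. The groups again did not overlap, and WT replicate 3 was the closest to the Clec7a+ samples. Atp6v1f rose by 1.13 ± 0.21 (2.19-fold, adjusted p = 0.000633) in APP and by 1.16 ± 0.21 (2.23-fold, adjusted p = 0.000684) in TAU. Atp6v1c1 and Atp6v1f were called at the same threshold under all 32 alternative settings tried in each comparison, the fit without WT replicates 2 and 4 among them.

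Atp6v1b2 encodes the B subunit of macrophages and brain, which forms the catalytic head with subunit A. It had 10.88, 11.24, 11.03 and 10.84 log2 units in Clec7a+ APP, 11.09, 11.11, 10.79 and 10.56 in Clec7a+ TAU, and 9.55, 8.73, 10.52 and 9.16 in WT. The groups did not overlap, although WT replicate 3 came close to the lowest Clec7a+ sample, and WT replicate 2 was the lowest. The rise was 2.84-fold in APP (1.51 ± 0.29, adjusted p = 0.00092) and 2.63-fold in TAU (1.40 ± 0.29, adjusted p = 0.00252). Without WT replicates 2 and 4 the differences were 0.96 and 0.85 and neither was called (adjusted p = 0.058 and 0.0998).

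Atp6v1g1, subunit G of the stator stalks, had 12.73, 12.24, 12.73 and 12.37 log2 units in Clec7a+ APP, 12.64, 12.43, 12.85 and 12.15 in Clec7a+ TAU, and 11.54, 10.92, 12.02 and 11.09 in WT. It was 2.18-fold higher in each (1.12 ± 0.28, adjusted p = 0.0116 in APP and 0.0134 in TAU). The call was lost in both comparisons without WT replicate 2 and without WT replicates 2 and 4 (0.74 in each, adjusted p = 0.254 in APP and 0.233 in TAU), and in TAU also without Clec7a+ TAU replicate 3.

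Subunits A and E passed the test in 1 Clec7a+ group each. Atp6v1a, the catalytic A subunit, had 9.62, 9.03, 9.34 and 8.82 log2 units in Clec7a+ APP, 8.76, 8.88, 9.22 and 8.49 in Clec7a+ TAU, and 8.64, 8.03, 8.59 and 7.38 in WT. The APP samples lay above all WT samples (1.04 ± 0.25, 2.06-fold, adjusted p = 0.0071), while the TAU samples overlapped them (0.68 ± 0.25, adjusted p = 0.095). Atp6v1a in APP was not called without WT replicates 2 and 4 (0.59, adjusted p = 0.215), nor in a fit of the APP and WT samples alone. Atp6v1e1, subunit E of the stator, had 12.97, 13.29, 13.64 and 13.50 in Clec7a+ APP, 13.81, 13.56, 13.74 and 13.46 in Clec7a+ TAU, and 13.07, 12.40, 13.39 and 12.20 in WT. It was 1.84-fold higher in TAU (0.88 ± 0.22, adjusted p = 0.0128) and had a difference of 0.58 ± 0.22 in APP (adjusted p = 0.107). The TAU call for Atp6v1e1 was lost without WT replicate 2, without WT replicate 4 and without both (0.41, adjusted p = 0.323). A fit of the TAU and WT samples alone lost it as well. The direct difference between the Clec7a+ groups, APP minus TAU, was 0.36 for Atp6v1a (adjusted p = 0.741) and -0.29 for Atp6v1e1 (adjusted p = 0.785), so neither was shown to differ between them.

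The remaining V1 members did not pass. Atp6v1g2, the neuronal paralog of subunit G, had a difference of -0.34 in APP (adjusted p = 0.581) and did not pass in TAU either. Atp6v1d, subunit D of the rotor, had differences of 0.48 in APP and 0.37 in TAU. Atp6v1h, the regulatory H subunit, pointed the other way, with -0.52 ± 0.18 in APP (adjusted p = 0.0803) and -0.33 ± 0.18 in TAU (adjusted p = 0.299). The 4 Atp6v1h values in Clec7a+ APP, 8.21, 8.27, 8.19 and 8.26, were all below the 9.03, 8.30, 9.00 and 8.66 of WT. Atp6v1b1, Atp6v1c2, Atp6v1e2 and Atp6v1g3, the paralogs known from kidney, testis and other tissues, were at background in all 6 groups, as was Atp6v1fnb.

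**Figure D2:**
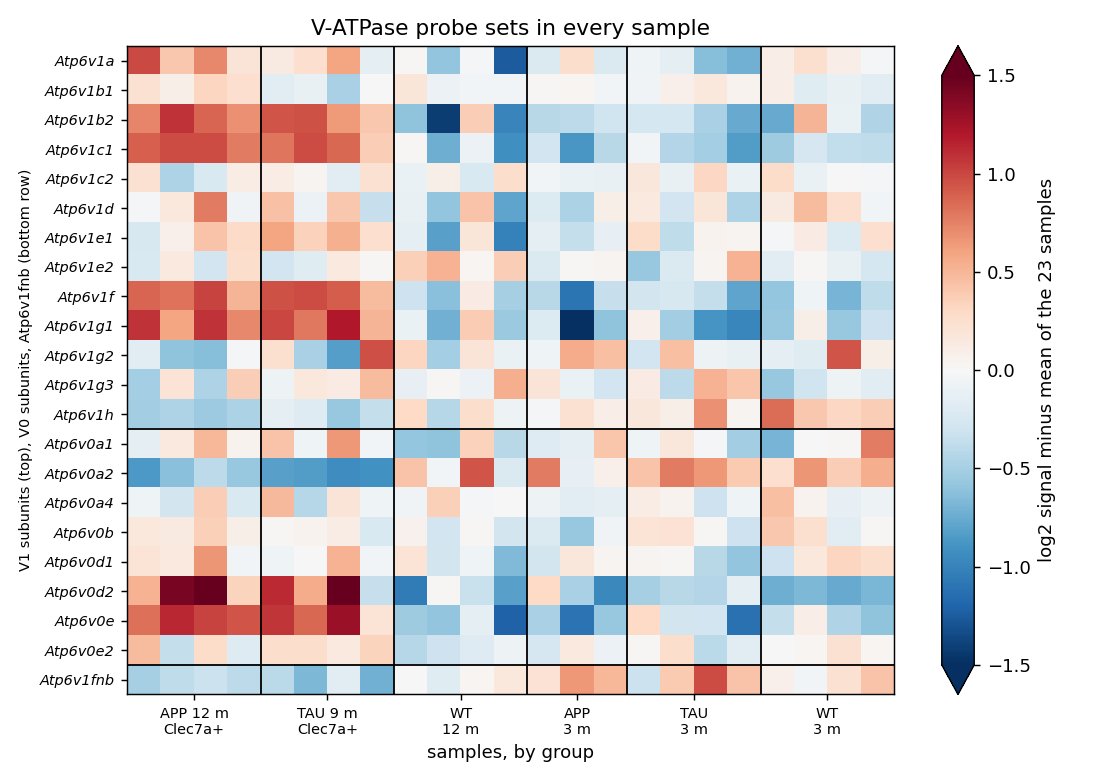
Signal of the 22 V-ATPase probe sets in every sample, as the log2 value minus the mean of that probe set over the 23 samples (red higher, blue lower, colour range capped at 1.5), with V1 above V0. Atp6v1b2, Atp6v1c1, Atp6v1f, Atp6v1g1 and Atp6v0e are red in all 8 Clec7a+ samples, Atp6v0a2 is blue in all 8, and 2 of the 4 WT samples at 12 months are blue for most V1 subunits.

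In V0, the membrane sector, 2 of 8 were higher and 1 lower in each Clec7a+ group. Atp6v0e, the small subunit e, had 11.51, 11.81, 11.70 and 11.62 log2 units in Clec7a+ APP, 11.75, 11.54, 11.98 and 10.89 in Clec7a+ TAU, and 10.15, 10.09, 10.54 and 9.47 in WT. All Clec7a+ samples exceeded all WT samples, with TAU replicate 4 the lowest. The rise was 3.03-fold in APP (1.60 ± 0.27, adjusted p = 0.000307) and 2.78-fold in TAU (1.48 ± 0.27, adjusted p = 0.000986), and Atp6v0e was called under all 32 alternatives in each comparison.

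Atp6v0a2, the a2 isoform, which in mammals is known mainly from Golgi and early endosomes, went the other way. It had 7.95, 8.18, 8.41 and 8.24 log2 units in Clec7a+ APP, 7.99, 7.97, 7.88 and 7.90 in Clec7a+ TAU, and 9.24, 8.77, 9.75 and 8.59 in WT. The groups did not overlap, and the TAU mean of 7.93 was just above the background of that group, 7.85. Atp6v0a2 was 1.86-fold lower in APP (-0.89 ± 0.22, adjusted p = 0.00834) and 2.22-fold lower in TAU (-1.15 ± 0.22, adjusted p = 0.00108). It was further below WT once WT replicates 2 and 4 were left out, by -1.30 and -1.56. In a fit of the APP and WT samples alone the APP call was lost (adjusted p = 0.0789). The a1 isoform, Atp6v0a1, had differences of 0.46 in APP (adjusted p = 0.348) and 0.56 in TAU (adjusted p = 0.229), neither called. Tcirg1, the gene of the a3 isoform of lysosomes and osteoclasts, falls outside the symbol rule and had 0.25 in APP and 0.40 in TAU, neither called. It is 1 of 13 measured genes listed as V-ATPase accessory and assembly genes. Of these 13, 0 were higher and 1 was lower in APP, and 0 were called in TAU. Their median differences were -0.17 in APP and -0.115 in TAU.

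Atp6v0d2, the d isoform of osteoclasts and some macrophages, was called higher in both comparisons although every group mean lay at background. Its values were 6.49, 7.40, 8.05 and 6.30 in Clec7a+ APP, 7.09, 6.53, 7.96 and 5.62 in Clec7a+ TAU, and 4.92, 5.99, 5.64 and 5.16 in WT. Replicate 3 of each Clec7a+ group was the only sample above its background level, and the TAU and WT samples overlapped. Because both sides were at background no fold is given (1.63 ± 0.40, adjusted p = 0.00883 in APP, and 1.37 ± 0.40, adjusted p = 0.0318 in TAU). The APP call was lost without Clec7a+ APP replicate 3 and the TAU call without any of Clec7a+ TAU replicates 1 and 3 and WT replicates 1 and 4. The TAU call was also lost without WT replicates 2 and 4 together (1.52, adjusted p = 0.0769) and in a fit of the TAU and WT samples alone (adjusted p = 0.107). The ubiquitous d isoform, Atp6v0d1, had differences of 0.44 and 0.30, and Atp6v0b, subunit c'' of the ring, 0.31 and 0.11, in APP and TAU, and none of these passed.

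**Figure D3:**
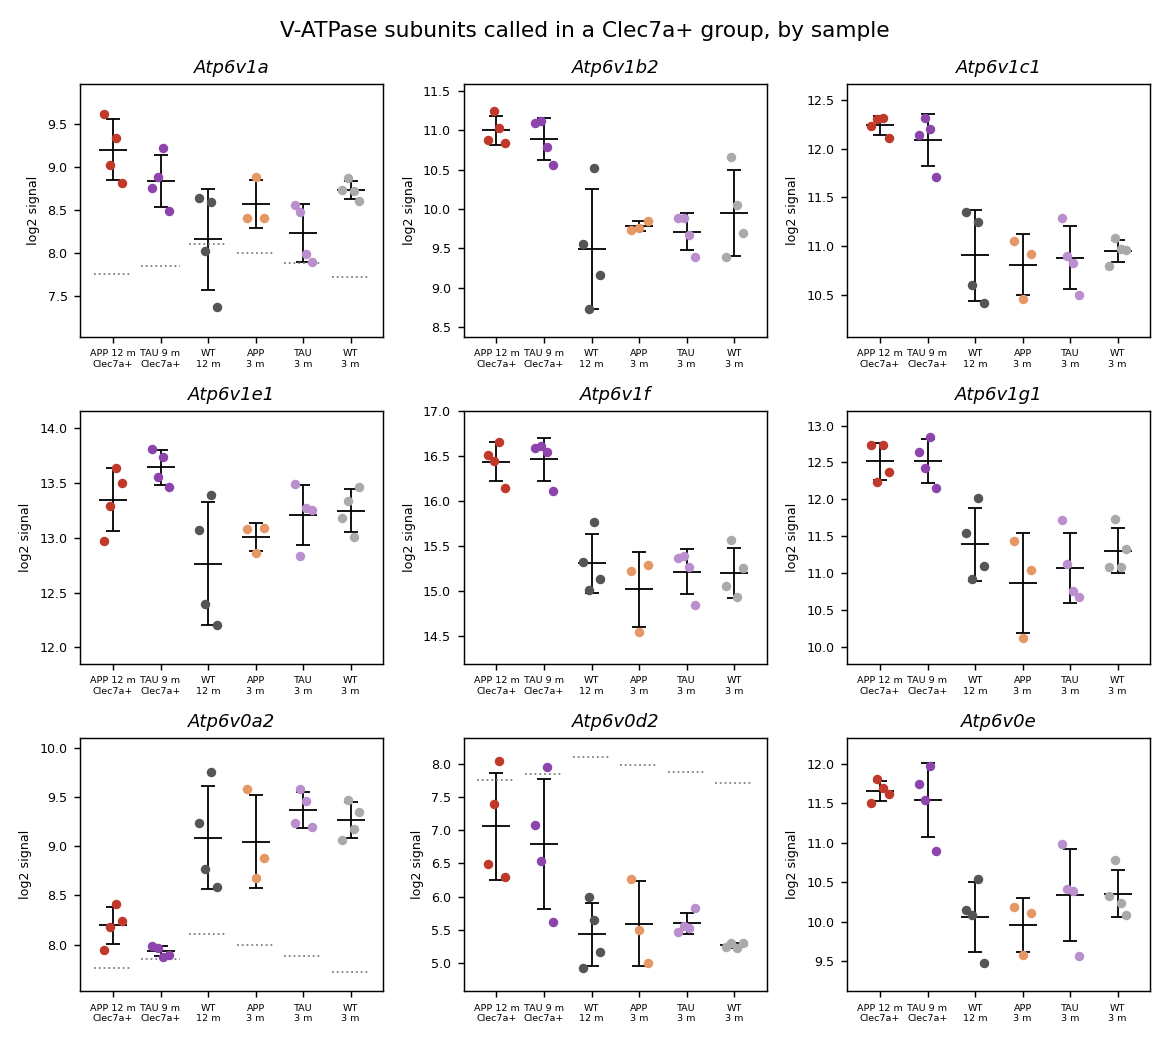
Log2 signal by sample for the 9 V-ATPase subunits called in a Clec7a+ group, with the group mean and SD (bars) and the background level of each group where it lies in range (dotted). For Atp6v1c1, Atp6v1f, Atp6v1g1, Atp6v1b2 and Atp6v0e the 8 Clec7a+ samples all lie above the 4 WT samples at 12 months, for Atp6v0a2 all 8 lie below them, and Atp6v0d2 stays at or near background.

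Many lysosomal genes, V-ATPase genes among them, are known to carry the CLEAR element, which the factors TFEB, TFE3 and MITF bind through its CACGTG core. Promoter windows of 250 bases before to 50 after the gene start (RefSeq, GRCm38.p6) were found for 113 of the 151 genes, 16 of the 22 V-ATPase genes among them. The letters GTCACGTG, the CLEAR core, searched on both strands, stood in 2 of the 16 V-ATPase windows (12.5%), Atp6v0b and Atp6v0d1, neither of which was called. They stood in 5 of 54 Rab (9.26%), 4 of 22 Vps (18.2%) and 0 of 21 Snx genes, and in 2.55% of all 27025 genes with a window. The shorter CACGTG, which lies within GTCACGTG, stood in 4 V-ATPase genes (25%), the other two being Atp6v0e and Atp6v1a, beside 8.09% of all genes. Among the called Rab genes the shorter letters stood in Rab20, which was higher, and the full GTCACGTG in Rab3il1, which was lower in Clec7a+ APP. TGACTCA, the AP-1 letters, stood in 5.31% of member genes and 5.95% of all genes, and GAGGAAGT, the ETS letters, in 2.65% and 3.69%. Of the 20 genes called in a Clec7a+ group, 10 had a window. The windows of the 4 V-ATPase genes with the letters, and of Rab20, are printed to show where the letters lie, and that of Rab3il1 is not, with GTCACGTG or CACGTG in capitals, each on the strand of its gene. A match of letters is a description and not a site.
Atp6v0e, chr17:26676146-26676445, plus strand: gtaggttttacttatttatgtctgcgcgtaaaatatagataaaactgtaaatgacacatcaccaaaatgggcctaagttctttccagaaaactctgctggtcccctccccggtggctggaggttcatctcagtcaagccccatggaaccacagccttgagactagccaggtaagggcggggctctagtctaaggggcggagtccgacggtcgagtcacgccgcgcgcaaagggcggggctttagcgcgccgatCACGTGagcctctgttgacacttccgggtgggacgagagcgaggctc
Atp6v1a, chr16:44139210-44139509, minus strand: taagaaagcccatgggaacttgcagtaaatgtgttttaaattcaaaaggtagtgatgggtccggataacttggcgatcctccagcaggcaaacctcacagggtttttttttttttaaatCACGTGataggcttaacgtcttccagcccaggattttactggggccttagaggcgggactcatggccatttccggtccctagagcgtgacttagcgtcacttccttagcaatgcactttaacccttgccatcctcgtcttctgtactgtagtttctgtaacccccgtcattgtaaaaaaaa
Rab20, chr8:11478591-11478890, minus strand: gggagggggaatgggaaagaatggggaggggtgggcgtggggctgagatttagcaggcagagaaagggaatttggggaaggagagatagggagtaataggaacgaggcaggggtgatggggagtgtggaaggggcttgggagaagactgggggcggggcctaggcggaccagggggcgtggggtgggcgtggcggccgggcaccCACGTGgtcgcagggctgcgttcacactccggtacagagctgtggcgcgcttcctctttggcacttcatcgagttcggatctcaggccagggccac
Atp6v0b, chr4:117887280-117887579, minus strand: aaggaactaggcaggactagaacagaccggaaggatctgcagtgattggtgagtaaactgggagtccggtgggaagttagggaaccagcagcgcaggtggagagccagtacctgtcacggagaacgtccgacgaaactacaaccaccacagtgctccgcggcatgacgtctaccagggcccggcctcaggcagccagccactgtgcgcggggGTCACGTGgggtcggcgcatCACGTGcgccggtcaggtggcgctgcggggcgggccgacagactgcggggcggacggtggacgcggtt
Atp6v0d1, chr8:105566015-105566314, minus strand: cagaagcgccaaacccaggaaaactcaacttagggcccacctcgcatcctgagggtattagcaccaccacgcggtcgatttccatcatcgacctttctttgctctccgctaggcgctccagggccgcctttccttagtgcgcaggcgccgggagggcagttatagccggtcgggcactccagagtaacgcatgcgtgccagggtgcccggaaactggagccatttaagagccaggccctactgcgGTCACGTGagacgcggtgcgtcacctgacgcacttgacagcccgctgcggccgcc

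Of the 8 Rab GTPases of late endosomes, lysosomes and phagosomes, Rab7b and Rab20 were higher in both Clec7a+ groups and none was lower. Rab7b, which acts in transport between late endosomes and the trans-Golgi network and in Toll-like receptor turnover in macrophages, had the largest difference of all 152 members. It had 10.54, 11.12, 9.95 and 10.41 log2 units in Clec7a+ APP, 9.54, 9.72, 10.21 and 8.97 in Clec7a+ TAU, and 7.70, 7.67, 6.69 and 7.50 in WT at 12 months. The WT samples were at background, and every Clec7a+ sample lay above all of them. The difference was 3.12 ± 0.29 in APP, at least 5.27-fold higher (adjusted p = 6.49e-08), and 2.22 ± 0.29 in TAU, at least 2.83-fold higher (adjusted p = 1.27e-05), called under all 32 alternatives in each.

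Rab20, known from phagosome maturation in macrophages, had 9.31, 9.17, 9.38 and 8.41 in Clec7a+ APP, 8.62, 8.78, 9.40 and 7.97 in Clec7a+ TAU, and 7.85, 7.41, 7.29 and 6.98 in WT. The WT mean was at background, and TAU replicate 4 lay closest to WT. Rab20 was at least 1.95-fold higher in APP (1.69 ± 0.27, adjusted p = 0.000118) and at least 1.50-fold higher in TAU (1.31 ± 0.27, adjusted p = 0.00236), also under all 32 alternatives in each.

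Rab7, the principal late endosome GTPase that brings in the HOPS tether, had 17.66, 17.63, 17.80 and 17.72 in Clec7a+ APP, 17.40, 17.37, 17.65 and 17.46 in Clec7a+ TAU, and 17.58, 17.24, 17.72 and 17.14 in WT. Its samples overlapped, with differences of 0.28 ± 0.15 in APP (adjusted p = 0.27) and 0.05 ± 0.15 in TAU (adjusted p = 0.88). Rab9, Rab29 and Rab32, which serve mannose 6-phosphate receptor return and lysosome-related organelles, had differences of 0.33, 0.26 and 0.17 in APP and 0.25, 0.03 and 0.51 in TAU, none called. Rab38 was at background in all groups.

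Among 6 Rab GTPases of early endosomes, none was called in Clec7a+ APP and 1, Rab31, was lower in Clec7a+ TAU. Rab31, a Rab5 relative that acts between the trans-Golgi network and endosomes, had 13.22, 13.69, 13.55 and 13.62 in Clec7a+ APP, 12.85, 13.07, 13.06 and 12.98 in Clec7a+ TAU, and 13.52, 13.29, 13.83 and 13.75 in WT. The TAU samples lay below all WT samples (1.52-fold lower, -0.61 ± 0.15, adjusted p = 0.0111), and the APP samples overlapped them (-0.08 ± 0.15, adjusted p = 0.811). The Rab31 call was lost when each array was centred on its median and in a fit of the TAU and WT samples alone (highest adjusted p = 0.0841). APP minus TAU was 0.53 (adjusted p = 0.117). Rab5a, Rab5b and Rab5c, the GTPases that define early endosomes, had 0.27, 0.10 and 0.72 in APP and -0.08, 0.03 and 0.83 in TAU, none called (lowest adjusted p, 0.0765 for Rab5c in TAU).

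None of the 6 recycling Rabs (Rab4a, Rab11a, Rab11b, Rab14, Rab25 and Rab35) was called, and 1 of them in APP and 2 in TAU had an unadjusted p under 0.05. Rab11fip1, an effector through which Rab11 directs recycling endosomes, had 7.83, 7.75, 7.45 and 7.10 in Clec7a+ APP, 5.86, 6.80, 7.57 and 5.94 in Clec7a+ TAU, and 5.64, 6.07, 5.81 and 5.59 in WT. The APP samples were all above WT, the TAU samples overlapped both other groups, and all group means were at background, so that no fold is given. The difference was 1.75 ± 0.27 in APP (adjusted p = 8.19e-05) and 0.77 ± 0.27 in TAU (adjusted p = 0.0816).

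Of 11 Rabs of the endoplasmic reticulum and Golgi, Rab1b, which drives transport between these organelles, was higher in both Clec7a+ groups. It had 10.11, 9.76, 9.89 and 9.55 in Clec7a+ APP, 10.09, 9.76, 9.74 and 9.48 in Clec7a+ TAU, and 9.41, 8.69, 9.34 and 9.09 in WT. The groups did not overlap, although TAU replicate 4 lay close to WT replicate 1. The rise was 1.62-fold in APP (0.70 ± 0.18, adjusted p = 0.0169) and 1.55-fold in TAU (0.64 ± 0.18, adjusted p = 0.0326). Without WT replicates 2 and 4 it was 0.45 and 0.39 and not called (adjusted p = 0.28 and 0.341). Both calls were also lost in a fit of the groups compared alone and without WT replicate 2. The APP call was lost without Clec7a+ APP replicate 1, and the TAU call without WT replicate 4 or Clec7a+ TAU replicate 1, 2 or 3.

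Among the 12 Rabs of secretion, Rab3d, a GTPase of secretory granules, was called in APP at background levels (5.17, 5.28, 5.58 and 5.15, against 4.96, 4.92, 4.72 and 4.67 in WT). Its difference was 0.48 ± 0.15 (adjusted p = 0.0401), and the call was lost without Clec7a+ APP replicate 2 or 3 and without WT replicate 2, 3 or 4. The Rab3d call was also lost without WT replicates 2 and 4 together, with array weights and in a fit of the APP and WT samples alone. In TAU the Rab3d difference was 0.32 (adjusted p = 0.194). None of the 13 Rabs of other or less settled roles was called in either comparison.

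Rab3il1, an exchange factor of Rab8 and Rab3 proteins, was the lower Rab-family member in APP. It had 9.28, 10, 10.24 and 9.74 in Clec7a+ APP, 10.61, 10.23, 10.15 and 9.83 in Clec7a+ TAU, and 11.43, 10.43, 11.72 and 10.50 in WT. The APP samples were below all WT samples and the TAU samples overlapped them. Rab3il1 was 2.31-fold lower in APP (-1.21 ± 0.31, adjusted p = 0.0139), and had a difference of -0.81 ± 0.31 in TAU (adjusted p = 0.114). The APP call was lost without WT replicate 1 or Clec7a+ APP replicate 1, and in a fit of the APP and WT samples alone. Without WT replicates 2 and 4 the difference was -1.76 (adjusted p = 0.00188).

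**Figure D4:**
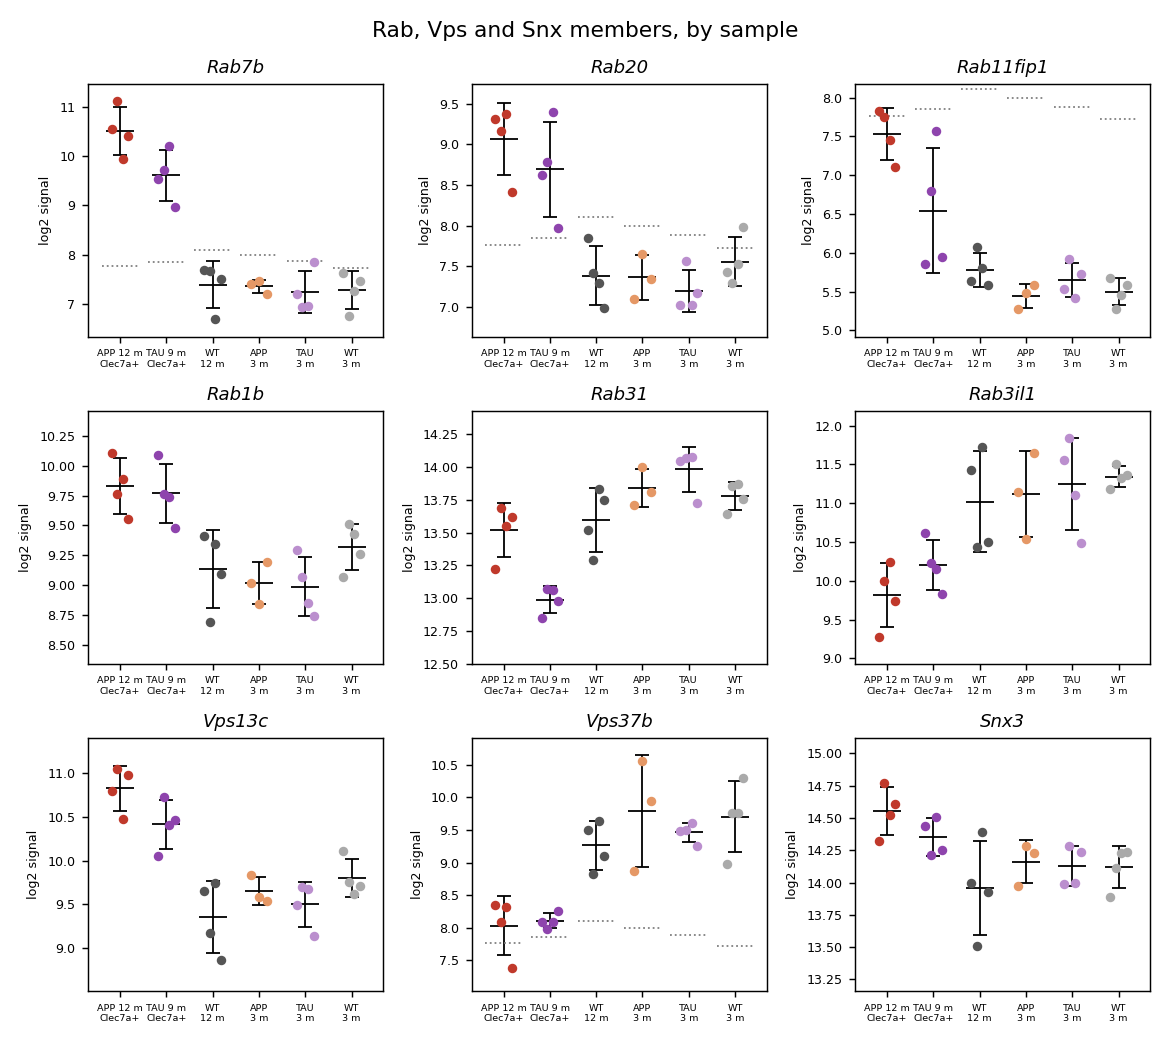
Log2 signal by sample for called Rab, Vps and Snx members, with group mean and SD (bars) and the background level of each group where it lies in range (dotted). Rab7b and Rab20 are at background in the 4 groups without the Clec7a gate and above it in both Clec7a+ groups, Rab11fip1 is highest in Clec7a+ APP, Rab31 is lowest in Clec7a+ TAU, and Vps37b is lowest in both Clec7a+ groups.

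The Vps family had 1 higher and 1 lower call in each Clec7a+ group, the same pair of genes. Vps13c, a lipid transfer protein at contacts between the endoplasmic reticulum and late endosomes or lysosomes, had 10.79, 11.05, 10.48 and 10.98 in Clec7a+ APP, 10.05, 10.73, 10.41 and 10.46 in Clec7a+ TAU, and 9.65, 9.17, 9.74 and 8.86 in WT. All Clec7a+ samples were above all WT samples. The rise was 2.77-fold in APP (1.47 ± 0.20, adjusted p = 2.15e-05) and 2.08-fold in TAU (1.06 ± 0.20, adjusted p = 0.00135). With WT replicates 2 and 4 left out, Vps13c was still called in APP (1.13, adjusted p = 0.00226) and not in TAU (0.72, adjusted p = 0.0607). Its relatives Vps13a, Vps13b and Vps13d had differences of -0.32, -0.23 and 0.05 in APP and -0.25, -0.54 and -0.22 in TAU, none called.

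Vps37b, a subunit of ESCRT-I, which sorts ubiquitylated cargo into the vesicles of late endosomes, had 8.35, 8.08, 8.31 and 7.38 in Clec7a+ APP, 8.09, 7.98, 8.09 and 8.26 in Clec7a+ TAU, and 9.50, 8.82, 9.63 and 9.10 in WT. The groups did not overlap, and the Clec7a+ means of 8.03 and 8.11 were just above background (7.76 and 7.85). Vps37b was 2.35-fold lower in APP (-1.23 ± 0.30, adjusted p = 0.00868) and 2.23-fold lower in TAU (-1.16 ± 0.30, adjusted p = 0.0159). The TAU call was lost without WT replicate 1 (adjusted p = 0.0518). The other ESCRT members were not called. Vps28, which binds Vps37 in ESCRT-I, had differences of 0.98 ± 0.34 in APP (adjusted p = 0.0843) and 0.64 ± 0.34 in TAU, and Vps25, Vps36, Vps4a and Vps4b lay between -0.32 and 0.60.

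Retromer, which returns receptors such as Sorl1 and the mannose 6-phosphate receptors out of endosomes, had no call among its 4 probe sets. Vps35, its core, had 11.45, 11.19, 11.66 and 11.24 in Clec7a+ APP, 11.27, 11.11, 11.60 and 11.35 in Clec7a+ TAU, and 11.28, 10.76, 11.43 and 10.92 in WT. The groups overlapped (0.29 ± 0.24, adjusted p = 0.519 in APP, and 0.23 ± 0.24, adjusted p = 0.611 in TAU). Vps26a had 0.04 and -0.16, Vps26b 0.14 and 0.25, and Vps29 0.62 and 0.67 in APP and TAU, with Vps29 the nearest to the threshold (adjusted p = 0.122 and 0.0961).

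HOPS and CORVET, the tethers that fuse late endosomes with lysosomes and early endosomes with each other, had no call among 7 probe sets. Vps11, a core subunit, had 7.90, 7.88, 7.97 and 8.04 in Clec7a+ TAU, below the 8.40, 8.40, 8.84 and 8.44 of WT, with an adjusted p just above the threshold (-0.57 ± 0.18, adjusted p = 0.0505). In Clec7a+ APP Vps11 overlapped WT (-0.14 ± 0.18). Vps18, another core subunit, had -0.80 ± 0.27 in APP (adjusted p = 0.0678) with both means at background, and Vps41 had 0.56 in APP and 0.44 in TAU. Among the GARP and EARP tethers of retrograde transport, Vps50, Vps52, Vps53 and Vps54 ranged from -0.50 to 0.28 in APP and from -0.13 to 0.47 in TAU, none called. The 2 subunits of retriever, a retromer relative that works with Snx17, were not called either.

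Of 31 Snx probe sets, 2 were called in Clec7a+ APP, both with values that overlapped WT. Snx3, which brings retromer to its cargo, had 14.32, 14.77, 14.52 and 14.61 in Clec7a+ APP, 14.44, 14.21, 14.51 and 14.25 in Clec7a+ TAU, and 14, 13.51, 14.39 and 13.93 in WT. WT replicate 3 lay within the APP range. Snx3 was 1.51-fold higher in APP (0.60 ± 0.17, adjusted p = 0.0245) and had 0.40 ± 0.17 in TAU (adjusted p = 0.161). The APP call was lost without WT replicate 2 or 4 or Clec7a+ APP replicate 2 or 4, and in a fit of the APP and WT samples alone. Without WT replicates 2 and 4 the difference was 0.36 (adjusted p = 0.351).

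Snx20, a nexin of white blood cells that binds the adhesion receptor PSGL-1, had 8.66, 8.14, 8.13 and 7.93 in Clec7a+ APP, against 7.97, 7.59, 7.42 and 7.40 in WT, whose mean was at background. It was at least 1.08-fold higher (0.62 ± 0.18, adjusted p = 0.0299). The Snx20 call was lost without WT replicate 2, 3 or 4 or Clec7a+ APP replicate 1 or 3. It was also lost without WT replicates 2 and 4 together, with array weights and in a fit of the APP and WT samples alone. The 12 SNX-BAR nexins, whose curved domain shapes recycling tubules, had no call in either comparison. Snx5, which binds the cation-independent mannose 6-phosphate receptor, had 17.48, 17.57, 17.32 and 17.58 in Clec7a+ APP, below the 17.96, 17.78, 17.84 and 17.73 of WT, without passing the test (-0.34 ± 0.17, adjusted p = 0.243).

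Of 113 other endolysosomal genes listed, 108 were measured. In Clec7a+ APP 12 were higher and 6 lower than in WT (median 0.12), beside 5.60% and 3.48% of the array, and in Clec7a+ TAU 8 were higher and 6 lower (median 0.04), beside 5.09% and 3.67%. Cd63, a tetraspanin of late endosomes, rose by 2.58 ± 0.25 in APP (adjusted p = 1.44e-07) and by 2.37 ± 0.25 in TAU (adjusted p = 8.07e-07). Lamp1, an abundant lysosomal membrane glycoprotein, rose by 1.01 ± 0.18 (adjusted p = 0.00035) and 0.78 ± 0.18 (adjusted p = 0.00595). Its relative Lamp2 rose by 0.81 in APP (adjusted p = 0.000476) and had 0.37 in TAU (adjusted p = 0.124). Lamp1, Lamp2 and Cd63 were the 3 higher members of the 11 lysosome membrane genes in APP, and Lamp1 and Cd63 the 2 in TAU.

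Genes that regulate lysosome number and nutrient signalling moved in both directions. Mitf, one of the factors that bind CLEAR elements, rose by 0.84 ± 0.23 in APP (adjusted p = 0.0214) and by 1.20 ± 0.23 in TAU (adjusted p = 0.00148). Tfeb had -0.34 in APP and -0.02 in TAU, and Tfe3 had -0.53 in APP and -0.20 in TAU, none of them called. Flcn, which restrains these factors through Rag GTPases, was lower by -1.42 ± 0.23 (adjusted p = 0.000178) in APP and -1.06 ± 0.23 (adjusted p = 0.00426) in TAU. Rragc was lower by -1.30 and -1.03 and Lamtor3, of the Ragulator scaffold, by -1.12 and -1.05, in APP and TAU (adjusted p = 0.00694 or less in each). Rragd was higher, by 1.97 ± 0.23 in APP (adjusted p = 2.98e-06) and 0.76 ± 0.23 in TAU (adjusted p = 0.0448, both means at background).

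Among Rab partners outside the symbol rule, Rilpl2, a relative of the Rab7 effector Rilp, rose by 2.29 ± 0.29 in APP (adjusted p = 5.85e-06) and 1.50 ± 0.29 in TAU (adjusted p = 0.00131). Eea1, the early endosome tether that Rab5 recruits, rose by 0.60 ± 0.16 in APP (adjusted p = 0.0218) and had 0.23 in TAU (adjusted p = 0.437). Of 18 sorting and recycling genes, 0 were higher and 1 was lower in APP, and 2 were higher and 1 was lower in TAU. The lower gene in each was Sort1, the sorting receptor sortilin, by -1.07 ± 0.22 in APP (adjusted p = 0.00237) and -0.87 ± 0.22 in TAU (adjusted p = 0.0156). Of 14 ESCRT genes, 3 were higher and 1 was lower in APP, and 0 were higher and 1 was lower in TAU. Chmp4b, a filament subunit of ESCRT-III, rose by 1.39 ± 0.28 in APP (adjusted p = 0.00167) and had 0.69 ± 0.28 in TAU (adjusted p = 0.142). No gene of the 7 phosphoinositide kinase genes was called in either comparison.

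Set directly against each other, Clec7a+ APP and Clec7a+ TAU microglia had no member called in limma, and 10 of 152 had an unadjusted p under 0.05. Over the array 0.626% of probe sets were called higher in APP and 0.302% lower, 0.928% in all. The widest gaps, APP minus TAU, were in Rab11fip1 (0.99, adjusted p = 0.0983), Rab7b (0.90, adjusted p = 0.207) and Snx6 (-0.71, adjusted p = 0.276), the last named after its values were seen. Without Clec7a+ TAU replicate 3, Rab11fip1 was called (1.33, adjusted p = 0.0018). With the 4 TAU samples at 9 months and the 4 APP samples at 12, age and transgene cannot be told apart here.

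Within each line, Clec7a+ microglia were compared with ungated microglia of the same strain at 3 months, which share no samples between the lines. Gate and age differ together in both lines, so they cannot be told apart in these comparisons. Cell markers moved as well. In APP 6 of 9 microglial, 5 of 7 border macrophage and 3 of 6 astrocyte markers were called lower, and 1 astrocyte and 1 endothelial marker higher. Border macrophage markers summed to 11.14 to 11.60 in Clec7a+ APP and 12.61 to 12.98 in APP at 3 months. In TAU 6 of 9 microglial and 3 of 5 neutrophil markers were lower, and 1 border macrophage and 1 T and NK cell marker higher. Their part in the calls was not tested. In APP, 14 members were higher and 12 lower (whole array 6.19% and 5.95%, 12.1% in all), and in TAU 13 were higher and 16 lower (whole array 6.67% and 6.81%, 13.5% in all). Of the 26 and 29 called members, 20 were called in both lines, all 20 in the same direction, 12 higher and 8 lower. That is 76.9% of the APP and 69.0% of the TAU calls, beside 66.4% and 59.8% for the 1789 probe sets called in both over the whole array. Of those 1789 probe sets, 1786 also moved in the same direction, so the shared direction is not particular to the members. Across the 152 members, which are not independent replicates, the differences in the lines had a Pearson r of 0.86 and a Spearman rho of 0.78, beside 0.80 and 0.68 over all probe sets.

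All 9 V-ATPase probe sets called in APP were also the 9 called in TAU. Atp6v0d2, Atp6v0e, Atp6v1b2, Atp6v1c1, Atp6v1f and Atp6v1g1 were higher, and Atp6v0a2, Atp6v1h and Atp6v1fnb were lower. Atp6v1g1 rose by 1.65 in APP and 1.45 in TAU, where it had 11.44, 10.12 and 11.04 log2 units in APP at 3 months and 11.72, 11.12, 10.76 and 10.67 in TAU at 3 months. Atp6v1h, which had not passed against WT, was lower by -0.60 in APP (adjusted p = 0.0445) and -0.56 in TAU (adjusted p = 0.0397). In WT, all Atp6v1h values at 12 months lay below all at 3 months, without passing the test (-0.465 ± 0.179, adjusted p = 0.486). Set against that WT change, Atp6v1h differed by -0.14 in APP (adjusted p = 0.8635) and -0.095 in TAU (adjusted p = 0.893), neither called. Atp6v0a2 was lower by -0.85 and -1.44.

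Among the other families, Rab7b (3.15 and 2.37), Rab20 (1.70 and 1.50), Rab11fip1 (2.09 and 0.89), Rab1b, Vps13c and Vps29 were higher in both lines, with the APP difference given first. Vps29 had 13, 13.97, 13.99 and 13.96 in Clec7a+ APP, against 13.01, 12.77 and 12.72 in APP at 3 months (0.90 ± 0.26, adjusted p = 0.0252), and Clec7a+ APP replicate 1 lay within the range of the young samples. In TAU it was 0.79 ± 0.24 (adjusted p = 0.031). Vps37b (-1.76 and -1.36), Vps11 (-0.63 and -0.92), Rab3il1, Snx17 and 1 of the 2 Snx29 probe sets were lower in both. The other Snx29 probe set was lower in TAU (-1.08, adjusted p = 0.0279) and not called in APP (-0.90, adjusted p = 0.108). Snx17, Snx29 and Atp6v1fnb were named after their values were seen.

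Snx17, a nexin that recycles LRP1 and integrins, had 9.72, 11, 10.71 and 10.75 in Clec7a+ APP and 11.22, 11.81 and 11.37 in APP at 3 months (-0.92 ± 0.25, adjusted p = 0.015). In Clec7a+ TAU it had 10.22, 10.42, 10.10 and 10.53, and in TAU at 3 months 11.46, 11.73, 11.53 and 11.21 (-1.17 ± 0.23, adjusted p = 0.00115). In neither line did the Clec7a+ samples overlap the ungated 3-month samples. In WT the 12-month samples (10.58, 10.56, 11.21 and 10.54) overlapped the 3-month samples (10.97, 11.34, 11.50 and 11.16), with a difference of -0.52 ± 0.23 (adjusted p = 0.533).

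**Figure D5:**
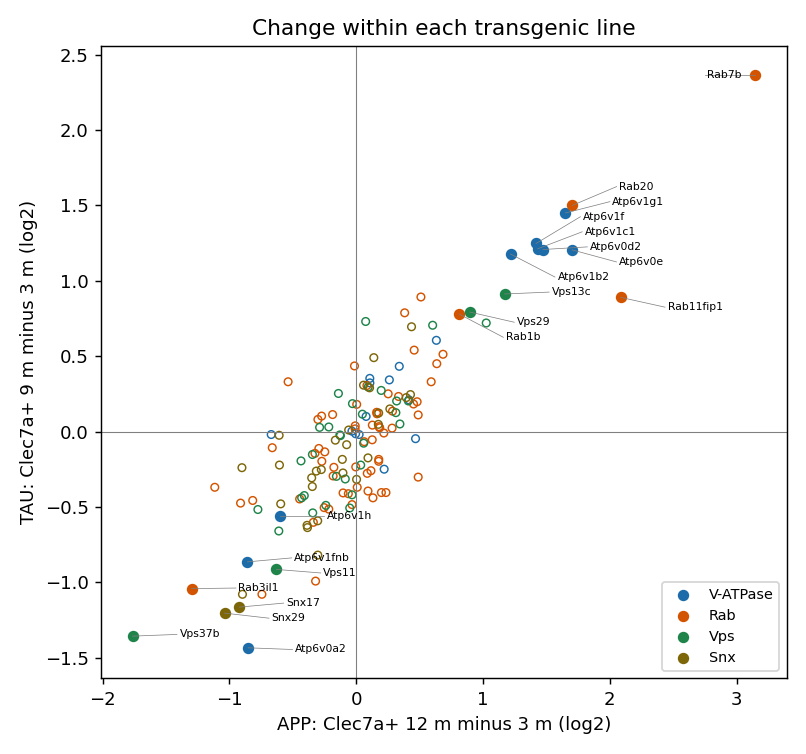
Difference in log2 signal of each of the 152 members between Clec7a+ microglia and 3-month ungated microglia of the same line, APP on the horizontal and TAU on the vertical axis. Filled points with names were called in both lines and open points were not. The 20 filled points, 12 higher and 8 lower, all lie in the quadrants where the lines move the same way. Over the whole array 1786 of the 1789 probe sets called in both lines did so.

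The within-line counts moved with single libraries. In APP the count was 15 to 27 when 1 library was left out, with 15 without APP replicate 2 at 3 months, 16 without APP replicate 3 at 3 months and 17 without Clec7a+ APP replicate 3. In TAU it was 17 to 31, with 17 without TAU replicate 3 at 3 months. The Y-linked genes measured summed to 5.84 to 9.58 log2 units in Clec7a+ APP and 5.76 to 6.36 in APP at 3 months, and with their mean as a covariate 16 members were called in APP, 8 in each direction.

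The groups without the Clec7a gate gave no member calls in limma. WT microglia at 12 against 3 months had 14 members with an unadjusted p under 0.05, and 8 probe sets of the array, 0.0360%, were called, all higher at 12 months. The median difference was -0.19 for V-ATPase, -0.04 for Rab, -0.09 for Vps and -0.24 for Snx probe sets, beside 0.01 for all probe sets. In the group means 27 of 31 Snx probe sets (87.1%) were lower at 12 months, beside 47.7% of the array and 61% of the 9130 probe sets above background in at least 1 group. These values depended in part on WT replicates 2 and 4 at 12 months. With both left out, an alternative chosen after seeing the data, the medians were -0.01 for V-ATPase, 0.09 for Rab, 0.14 for Vps and -0.10 for Snx. Then 19 of 31 Snx probe sets (61.3%) were lower, beside 51% of the array and 44.2% of the probe sets above background in at least 1 group. The median of the latter was -0.09 with all samples and 0.04 with both left out. Vps33a was called without WT replicate 3 at 12 months (-1.26, adjusted p = 0.049) and not with all samples (-0.89, adjusted p = 0.458). At 3 months, APP against WT had 3 members and TAU against WT 4 members with an unadjusted p under 0.05, and no probe set of the array was called in either (0%). Y-linked genes summed to 5.76 to 6.36 in APP and 9.05 to 10.04 in WT at 3 months.

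Rab7b had 7.40, 7.46 and 7.21 log2 units in APP, 7.21, 6.94, 6.97 and 7.85 in TAU and 7.63, 6.76, 7.27 and 7.47 in WT at 3 months, all near background. Atp6v1c1 had 11.05, 10.46 and 10.92 in APP, 11.29, 10.90, 10.83 and 10.50 in TAU, and 10.80, 11.08, 10.97 and 10.96 in WT at 3 months. For both genes these ranges overlap each other and that of WT at 12 months. For Atp6v0d2 all TAU samples at 3 months lay above all WT samples at 3 months (0.33 ± 0.40, adjusted p = 0.998), and for Atp6v1a all lay below (-0.50 ± 0.25, adjusted p = 0.998), neither called.

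The change within a transgenic line was also set against the change of WT between 3 and 12 months. For TAU the change in the line runs from 3 to 9 months, a shorter span than that of WT. In APP 10 members changed more upward than in WT and none more downward (whole array 2.82% and 0.977%, 3.80% in all), 5 of them V-ATPase subunits (Atp6v0e, Atp6v1b2, Atp6v1c1, Atp6v1f and Atp6v1g1). In TAU 8 did so upward and 2 downward (whole array 2.60% and 1.15%, 3.75% in all), with Atp6v0e, Atp6v1b2, Atp6v1c1 and Atp6v1f upward and Atp6v0a2 and Rab31 downward. Without WT replicates 2 and 4 at 12 months 6 members were called in APP, all upward, and 3 in TAU, 1 upward and 2 downward.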

How the data were processed

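The authors deposited 1 log2 signal per probe set and array, made by RMA in Transcriptome Analysis Console per the submitters' processing notes. RMA brings arrays to a common distribution, which can hide a shift shared by most genes. Versions, filters and the genome build of the array are not given in the sources used here. Per the labels' protocols, total RNA was extracted from sorted cells and 5 ng was amplified with a 3'IVT kit. Arrays have no read depth, and their number limits the precision.

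The log2 values were fitted with limma 3.58.1 (R 4.3.3, lmFit and eBayes, two-sided) in 1 model of 6 group means over all 23 samples, with Benjamini-Hochberg adjustment over 22203 probe sets per comparison. The fit left 17 residual degrees of freedom, and the median SE of a difference between groups of 4 was 0.235 for members. The test was tried on simulated data before use. Probe sets were named by the platform annotation, with 19572 of 22203 carrying a symbol. No set test was run.

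The members and lists were chosen with earlier results of these data known. Members named in the text were, per family, up to 6 called members with the largest difference in each Clec7a+ comparison, and subunits of named complexes. The Rab genes named as not called, Snx5 and Snx6 fall outside that rule and were chosen after their values were seen. Other endolysosomal genes were listed to be given as counts. Those named with values, such as Tcirg1, Cd63 and Mitf, were also chosen after their values were seen.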

Additional observations from a re-analysis of the deposited data

Results flagged for a closer look

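A single sample stood far from the others of its group in 2 of 100 groups of 4 tested (2%), where chance gives about 1 in 20. Atp6v1f had 16.11 log2 units in Clec7a+ TAU replicate 4, against 16.54, 16.59 and 16.61 in the other replicates. Rab31 had 13.73 in TAU replicate 4 at 3 months, against 14.05, 14.07 and 14.08 in the others.

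The remaining results were flagged because the change between Clec7a+ microglia and 3-month microglia of a line differed from the change of WT microglia between 12 and 3 months, by limma's test of that difference. The APP and TAU values share the WT samples, and gate, transgene and age cannot be told apart in them. In V1, Atp6v1b2 differed by 1.68 ± 0.42 (SE, adjusted p = 0.0225) in APP and 1.64 ± 0.40 (adjusted p = 0.0222) in TAU. Atp6v1c1 differed by 1.48 ± 0.31 (adjusted p = 0.00507) in APP and 1.26 ± 0.29 (adjusted p = 0.0158) in TAU. Atp6v1f differed by 1.31 ± 0.30 (adjusted p = 0.0128) in APP and 1.14 ± 0.29 (adjusted p = 0.0278) in TAU, and Atp6v1g1 by 1.56 ± 0.42 (adjusted p = 0.0341) in APP. In V0, Atp6v0e differed by 2.0 ± 0.40 (adjusted p = 0.00394) in APP and 1.50 ± 0.39 (adjusted p = 0.0296) in TAU, and Atp6v0a2 by -1.26 ± 0.30 (adjusted p = 0.0201) in TAU.

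Among Rab members, Rab7b differed by 3.04 ± 0.42 (adjusted p = 6.81e-05) in APP and 2.26 ± 0.41 (adjusted p = 0.00161) in TAU. Rab20 differed by 1.88 ± 0.39 (adjusted p = 0.00541) in APP and 1.67 ± 0.38 (adjusted p = 0.0119) in TAU. Rab1b differed by 1.0 ± 0.27 (adjusted p = 0.0389) in APP and 0.97 ± 0.26 (adjusted p = 0.0387) in TAU. Rab11fip1, at background in all groups, differed by 1.81 ± 0.40 (adjusted p = 0.00817) in APP, and Rab31 by -0.81 ± 0.21 (adjusted p = 0.0316) in TAU. Vps13c differed by 1.62 ± 0.30 (adjusted p = 0.00168) in APP and 1.36 ± 0.29 (adjusted p = 0.00726) in TAU.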

How the results depend on the processing

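Every alternative was run, and no difference of a called gene against WT at 12 months changed sign. Without WT replicates 2 and 4 the Rab median turned negative in APP (0.06, then -0.04) and TAU (0.01, then -0.06), as did the Vps median in APP. The Rab median in TAU and the Vps and Snx medians in both also changed sign under other alternatives. The cause of the changes below was not tested. Against WT at 12 months, 18 members were called in Clec7a+ APP and 11 in a fit of those groups alone, with 14 to 25 when 1 library was left out. V-ATPase calls were 8, with 7 to 9, and Rab calls 6, with 4 to 7, and 3 Rab calls either in a fit of those groups alone or at an adjusted p under 0.01. In Clec7a+ TAU, 14 members were called, 8 at an adjusted p under 0.01, 9 without WT replicates 2 and 4, and 11 to 24 when 1 library was left out (24 without WT replicate 3). V-ATPase calls there were 8, then 5 at 0.01, 4 without WT replicates 2 and 4, and 6 to 9. Rab calls were 4, then 2 at 0.01, 2 in a fit of those groups alone, and 3 to 7 (7 without Clec7a+ TAU replicate 4). Clec7a+ APP against TAU gave 0 calls, with 0 to 1, and WT at 12 against 3 months 0, with 0 to 1.

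Within the APP line 26 calls became 12 at 0.01, 15 in a fit of those groups alone, 16 with the Y-linked covariate, the mean of Y-linked genes, and 15 to 27. Within the TAU line 29 became 16 at 0.01, and 17 to 31. For the change set against that of WT, 10 calls in APP became 6 at 0.01, 6 without WT replicates 2 and 4, 4 with the Y-linked covariate, and 6 to 13 (6 without APP replicate 2 at 3 months). In TAU, 10 became 2 at 0.01, 16 with array weights, 3 without WT replicates 2 and 4, 5 with the Y-linked covariate, and 5 to 15 (5 without WT replicate 4 at 12 months or Clec7a+ TAU replicate 1). The V-ATPase median was 0.37 in APP, 0.15 without WT replicates 2 and 4, and 0.34 in TAU, 0.62 without dim probe sets (7826 kept). The Vps median was 0.03 in APP and -0.03 in TAU, and without WT replicates 2 and 4 it was -0.20 and -0.28.

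Replicate numbers are shared between groups, and 28 of 55 same-numbered pairs had deviations that correlated above 0.1 (range -0.52 to 0.55). The median correlation was 0.10 for same-numbered pairs and -0.03 for pairs with different numbers. Of the 23 samples, 13 correlated best with a sample of their own number in another group. The labels do not say what the numbers share, and whether they mark a shared batch or day was not tested. With the replicate block, 21 members were called in APP and 17 in TAU against WT, 26 and 31 within the lines, 13 and 14 for the change set against that of WT, and 0 in each of the 4 other comparisons. For V-ATPase the block gave 8 and 9, and for Rab 7 and 6. Signal near background limits the 44 members at background in all groups.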
